A study of Arabidopsis thaliana and Marchantia polymorpha with 6 samples.

Results

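The regions described here are 6812 places inside protein-coding genes of Arabidopsis thaliana where the transcription factor AtHY5 held DNA in vitro and AtPIF4 had no event nearby. They were taken from the 16825 events of the AtHY5 library, of which they are 40.5% (95% Wilson interval 39.7 to 41.2). An event was kept when its centre lay inside a protein-coding gene, outside the pericentromeres, and more than 1000 bp from the centre of every one of the 6699 AtPIF4 events. The events were thus chosen by the measured positions in both event lists and by the gene table, and the absence of AtPIF4 and the location in genes are conditions and not results.

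The study used DNA affinity purification sequencing, in which protein made in Escherichia coli and held on amylose beads is offered purified genomic DNA with sequencing adapters. For both proteins the DNA came from 10-day-old seedlings of the accession Col-0, grown in MS medium and cut to about 200 bp on average. The series has 6 samples, and AtHY5 and AtPIF4, each with 1 library, are used here. The Arabidopsis input and the Marchantia samples were not analysed here. With 1 library per protein no value has a replicate error, no difference between proteins can be tested over samples, and the intervals given cover counting error only. Neither list states a read total, and sequencing depth is therefore unknown.

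HY5 is a bZIP transcription factor that accumulates in light, where it escapes destruction by the COP1 and SPA proteins, and promotes greening, anthocyanin formation and the arrest of stem elongation. It binds DNA sites built round an ACGT core, of which the G-box is one. PIF4 is a bHLH factor of shade and warmth responses that is destabilised by active phytochrome B, and it too binds the G-box. DNA of this assay carries no nucleosomes, so an event shows what the protein can hold and not what it holds in a nucleus. A genome sequence was not used here, and no motif or base composition was examined at the events.

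Within the AtHY5 list, events inside genes with no AtPIF4 nearby scored lower than events with AtPIF4 nearby. The score is the value that the authors' event caller gave each event, and its units are not stated. The AtHY5-only events inside genes had a median of 108 (95% binomial interval 106 to 110). Their quartiles were 80 and 159, and their range was from 59 to 3632.5. AtHY5 events outside genes and without AtPIF4 nearby, 2981 in number, had a median of 110 (107 to 112), so these 2 classes had overlapping intervals. All AtHY5 events of the pericentromeres together had a similar median, 111 (108 to 114). The 3235 AtHY5 events inside genes that did have an AtPIF4 event within 1000 bp had a median of 152 (147 to 158). The ratio of the medians inside genes, 0.711, lay between 0.638 and 0.768 under the other settings tried. Events outside genes with AtPIF4 nearby had a median of 151 (142 to 159.5). No test over samples was possible, and whether both libraries share background signal was not tested.

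The difference from events with AtPIF4 nearby was also seen at high scores. Scores of 500 or more were reached by 171 of the AtHY5-only events inside genes, or 2.51%, and by 2.28% of those outside genes, against 11.8% of the events inside genes with AtPIF4 nearby. Of the 1604 AtHY5 events inside genes with scores from 59 to 75, 79.5% had no AtPIF4 event within 1000 bp (77.4 to 81.4). That share was 64.3% for scores from 150 to 250 (62.1 to 66.4), 36.3% from 500 to 1000 (31.8 to 41.2), and 17.0% from 1000 upward (11.9 to 23.7), where 26 of 153 events qualified. The class from 59 to 75 does not cover all chromosomes alike. Scores began at 94 on chromosome 3, which has no event in it, and at 73.2 on chromosome 2.

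**Figure D1:**
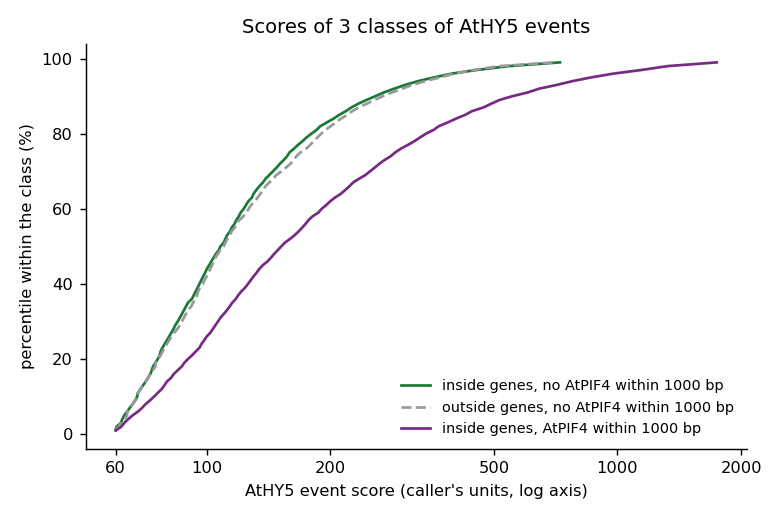
Cumulative distribution of AtHY5 event scores (x axis, log scale, in the caller's units) within 3 classes of events outside the pericentromeres (y axis, percentile of the class). The curves of AtHY5-only events inside and outside genes nearly coincide, with medians of 108 and 110, and the curve of events inside genes with AtPIF4 within 1000 bp lies to the right, with a median of 152.

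The score followed the distance to AtPIF4 only over short range. AtHY5 events inside genes with an AtPIF4 centre within 100 bp had a median score of 175 (169 to 185). The median was 139 (132 to 148) at 100 to 500 bp and 115 (110 to 125) at 500 to 1000 bp. Beyond 1000 bp, where all the AtHY5-only events lie by choice, the 6 distance classes had medians between 106 and 110, and their intervals overlapped, with 99.6 and 117 as the outermost bounds. The median distance of the AtHY5-only events from AtPIF4 was 6567 bp, the longest was 82846 bp, and 801 of them, or 11.8%, lay within 2000 bp.

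**Figure D2:**
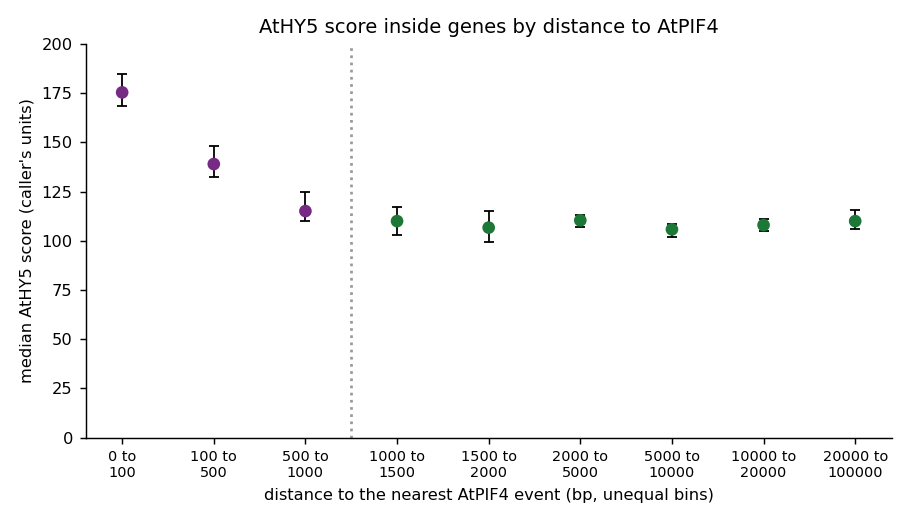
Median score of AtHY5 events inside genes (y axis, caller's units, with 95% binomial intervals as bars) by distance to the nearest AtPIF4 event (x axis, bp, unequal classes). The dotted line marks 1000 bp: the green points to its right are the AtHY5-only events, with medians between 106 and 110, and the purple points to its left fall from 175 to 115.

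The events nearest to the distance limit are given as they stand. Just beyond it lay an event in AT2G25330 with a score of 91, 1002 bp from AtPIF4, and another in AT4G15740 with a score of 258, 1003 bp away. Just within it, at 1000 bp, lay events in SRPK4 with a score of 139 and in AT1G67690 with a score of 131. Median scores in the distance classes on either side of the limit had overlapping intervals, whereas shares with a neighbour did not. Another AtHY5 event lay within 1000 bp of 71.4% of events at 500 to 1000 bp from AtPIF4 (67.4 to 75.1). At 1000 to 1500 bp from AtPIF4 the share was 39.8% (35.2 to 44.6). The neighbour limit was also 1000 bp, so an AtHY5 event lying at the AtPIF4 centre counts as a neighbour only on the near side. The equal limits thus enter this drop, and how much of it they account for was not tested.

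The leading events, leaving out 1 within 10 kb of a ribosomal RNA gene, lay in 9 genes of varied function. That event, in AT2G01008, had the score of 3632.5. JAC1, which encodes a J-domain protein needed for chloroplasts to gather in weak light, came first with a score of 3051 on chromosome 1 at 28193514 to 28193713. The centre lay 455 bp inside a JAC1 end and 8040 bp from the nearest AtPIF4 event. It also lay 392 bp beyond an end of the neighbouring gene RRA2, so the gene to which it belongs cannot be told apart from position alone.

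GH3.17, which encodes an enzyme that joins auxin to an amino acid, followed with a score of 2759 on chromosome 1 at 9827460 to 9827659. Its centre was 559 bp inside the gene and 22884 bp from AtPIF4, and no other protein-coding gene lay within 1000 bp. BLH4, a gene for a BEL1-like homeodomain protein, had a score of 2593 on chromosome 2 at 10108019 to 10108218, with the centre 411 bp inside the gene and 11557 bp from AtPIF4. AT1G80440, which encodes the Kelch-repeat F-box protein KFB20, had 2245 on chromosome 1 at 30242310 to 30242509, and holds 3 such events. These 4 scores lay above 99.7% to 99.8% of the AtHY5 list.

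The other leading genes carry locus names alone. AT2G46630 had a score of 2756, AT1G04040 had 2566 and AT4G26880 had 1988. In AT3G56810 an event of score 1874.5 was accompanied by 3 weaker ones. AT2G03000 held a pair with nearly equal scores, 1846 and 1837.5, with 1 of the AtPIF4 events 1099 bp from the first. All 10 leading events had their centres between 326 and 767 bp from the nearest gene end. Besides JAC1, 3 of them had another gene within 1000 bp, namely those in AT1G04040 and AT4G26880, at 669 and 520 bp, and the 1837.5 event of AT2G03000, which lay 734 bp beyond an end of RNS1.

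Inside genes, the events were fewer near the gene ends and most frequent, for their genes, somewhat further in. Each event was set against an even spread over its own host gene, computed from the gene's length. From 300 to 500 bp inside the nearest gene end lay 1594 events, or 23.4% (22.4 to 24.4), where an even spread gives 17.2%, a ratio of 1.36 (1.3 to 1.42). Within 100 bp of an end lay 425 events, or 6.24% (5.69 to 6.84), where an even spread gives 9.86%, a ratio of 0.633 (0.577 to 0.694). The ratio returned to 1.02 (0.962 to 1.07) at 700 to 1000 bp and was 0.757 (0.670 to 0.856) at 2000 bp and over.

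AtHY5 events inside genes with AtPIF4 nearby showed similar ratios, 1.35 (1.27 to 1.43) at 300 to 500 bp and 0.566 (0.495 to 0.647) within 100 bp. In both of these zones the intervals of the classes overlapped. Over the whole outer 500 bp they did not. There lay 3267 AtHY5-only events, or 48.0% (46.8 to 49.1) where an even spread gives 46.2%, a ratio of 1.04 (1.01 to 1.06), and with AtPIF4 nearby the ratio was 0.966 (0.932 to 0.999). No test over samples was possible for this difference. The gene table gives no strand, exons or introns, so gene starts could not be told from gene ends, and exons, introns and untranslated regions were not separated.

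**Figure D3:**
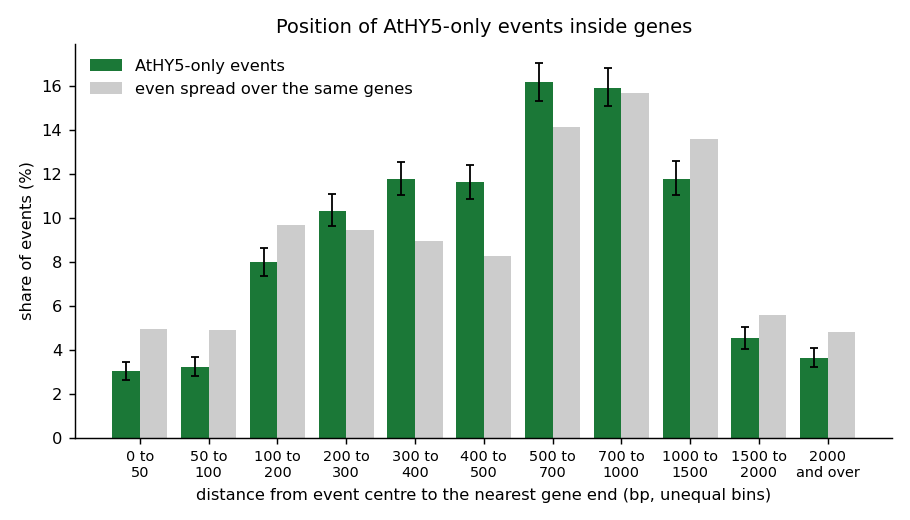
Share of AtHY5-only events (green bars, % with 95% Wilson intervals) by distance from the event centre to the nearest end of the host gene (x axis, bp, classes of unequal width), beside the share that an even spread over the same genes gives (grey bars). The green bars exceed the grey ones from 200 to 700 bp and stay below them within 200 bp of an end and beyond 1000 bp.

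The place of the events within a gene, taken relative to its length, changed with gene length. Each gene was divided into 5 zones of equal length by depth from its ends, which an even spread would fill equally. In host genes of up to 1000 bp, 31.0% of 461 events lay in the innermost zone and 7.59% in the outermost. In genes over 5000 bp, 16.3% of 687 events lay in the innermost zone and 25.5% in the outermost. In short genes the outermost zone lies wholly near an end, where events were fewer than an even spread gives. How much of the change between zones this accounts for was not tested. The median distance to the nearest end was 237 bp in the short genes and 1315 bp in the long ones. Gene length itself limits this distance, and no even-spread value was computed for it, so these medians show no change of place. Scores also differed with gene length, with medians of 114.5 (107 to 121) in the short and 96.1 (93 to 100.4) in the long genes. Events 300 to 500 bp from an end had a median score of 115 (111 to 119), and those 2000 bp or more from it had 96 (92 to 102).

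Host genes numbered 5551 of the 24061 protein-coding genes outside the pericentromeres, so the share of all such genes with an AtHY5-only event was 23.1%. Their median length was 2385 bp against 2120 bp for all genes. In the shortest of 5 equal length classes 15.1% of genes held an event (14.1 to 16.1), and in the longest 30.9% did (29.6 to 32.2). Counted per Mb of gene, the order was the opposite, with 218 in the shortest class and 83.4 in the longest. An AtPIF4 event, more than 1000 bp away, lay in 411 of the host genes, or 7.40% (6.74 to 8.12). The choice of events limits this count, because a nearer AtPIF4 event would have removed the AtHY5 event. The share of all genes with an AtPIF4 event is not given here, so 7.40% has no background to be read against.

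A minority of events shared annotation with a neighbour. Another protein-coding gene had an end within 1000 bp of 2446 events, or 35.9% (34.8 to 37.1). Centres of 131 events lay in 2 overlapping protein-coding genes, and 147 lay in a gene of another kind as well, 128 of these in a long non-coding RNA gene.

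Chromosomes appeared to differ in how many genes held such an event, and this went with the lowest score listed on each. The share of genes was 25.3% on chromosome 1, 21.6% on chromosome 2, 16.8% on chromosome 3, 25.1% on chromosome 4 and 25.3% on chromosome 5. The interval of chromosome 3 (15.7 to 17.9) lay below all others. The lowest AtHY5 score, however, was 59 on chromosomes 1 and 5, 61 on chromosome 4, 73.2 on chromosome 2 and 94 on chromosome 3. AtPIF4 scores began at 79 on chromosomes 1 and 5, 92.2 on chromosome 4, 110 on chromosome 2 and 117 on chromosome 3.

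With the same lowest score on every chromosome, 94 for AtHY5 and 117 for AtPIF4, the difference was no longer seen. This setting was chosen after seeing the data. It left 4601 AtHY5-only events in 16.5% of genes, and the shares by chromosome then lay between 16.3% and 16.8% with overlapping intervals. Per Mb of gene there were 76.0 to 81.0 such events. The median score, 142.9 on chromosome 3 and 96.6 to 115 on the others in the full list, became 139 to 145. Among AtHY5 events inside genes, the share without AtPIF4 nearby was 66.9% to 69.2% by chromosome in the full list and 65.1% to 69.4% with equal lowest scores. Why the lowest score differed by chromosome was not tested.

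**Figure D4:**
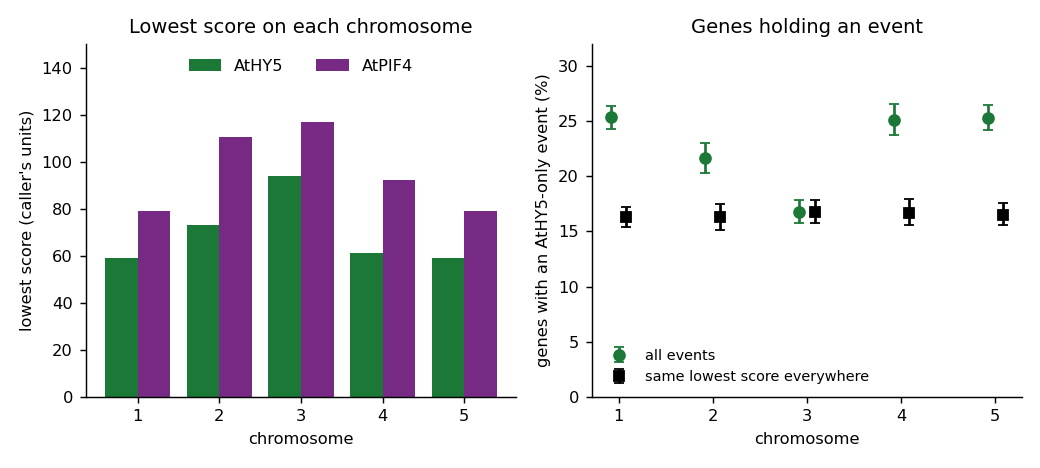
Left, lowest event score on each chromosome in the AtHY5 and AtPIF4 lists (bars, caller's units). Right, share of protein-coding genes holding an AtHY5-only event (%, with 95% Wilson intervals), for all events (circles, 16.8% on chromosome 3 and 21.6% to 25.3% elsewhere) and with the same lowest score on every chromosome (squares, 16.3% to 16.8%).

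Some genes held several events. Of the 5551 host genes, 1170 held 2 or more, or 21.1% (20.0 to 22.2), which is 4.86% of all genes, and 192 held 3 or more. Those with 3 or more had a median length of 2820 bp. Consecutive events of a gene lay a median of 549 bp apart and at least 41 bp, and 394 of 1392 spacings, or 28.3%, were 300 bp or less. The class of 100 to 150 bp held 117 spacings, more than any other 50 bp class below 400 bp. Fragments averaged 200 bp, so at these spacings fragments of both events would overlap.

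HAK5, which encodes a high-affinity potassium transporter, held 5 events in 5470 bp, with 4 of them 808 to 1555 bp from the end with the lower coordinate. Their scores in order along the gene were 196, 113, 97.5, 131 and 66. AT1G55430 held 5 events in 2296 bp, with scores from 61.5 to 151, and AT1G62660 held 5 in 4197 bp, with scores from 80.1 to 141. The highest of them all, 196, lay above 76.0% of the AtHY5 list. The event of score 128 in AT1G62660 also lay 565 bp beyond an end of RPF2.

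AT3G56810 and 4CL2 held 4 events each. In AT3G56810 all 4 lay from 270 to 689 bp inside the gene, and the third along the gene, with 1874.5, was far above the others, at 171, 173 and 292. 4CL2, a gene for a 4-coumarate:CoA ligase of phenylpropanoid synthesis, had a pair at each side of the gene, with scores of 245 and 192 on chromosome 3 from 7454955 to 7455233 and of 286 and 366 from 7456627 to 7457204. The events of 286 and 366 also lay 707 and 329 bp beyond an end of ABCC8. The 171 event of AT3G56810 lay 815 bp beyond an end of CAM3.

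**Figure D5:**
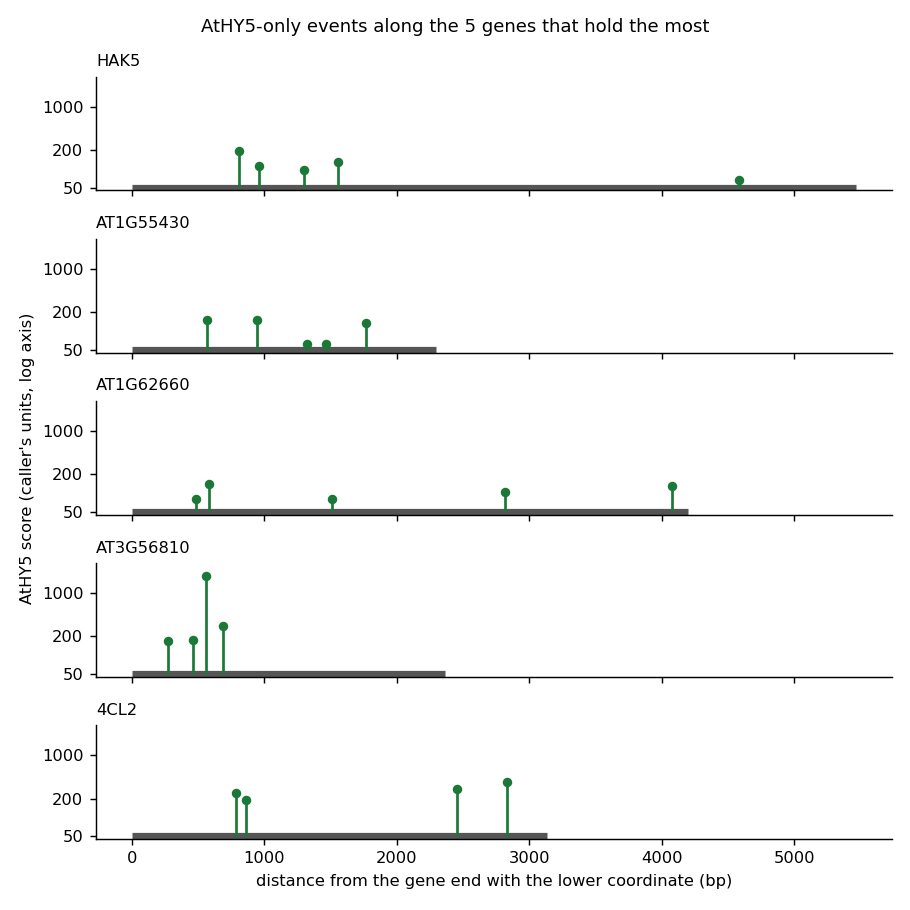
AtHY5-only events along the 5 genes that hold the most (grey bar, the gene; x axis, bp from the end with the lower coordinate, direction of transcription not given), with each event drawn as a stem whose height is its score (y axis, log scale, caller's units). In HAK5, 4 events lie between 808 and 1555 bp, the 4 in AT3G56810 lie between 270 and 689 bp, and the 1874.5 event of AT3G56810 stands above the rest.

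A neighbouring AtHY5 event was less frequent here than beside AtPIF4. Of the AtHY5-only events inside genes, 33.2% had another AtHY5 event within 1000 bp (32.1 to 34.3), against 26.5% of those outside genes (24.9 to 28.1) and 59.5% of the events inside genes with AtPIF4 within 1000 bp (57.8 to 61.2). The choice of events itself enters the comparison with AtPIF4. An AtHY5 event at an AtPIF4 centre can never lie within 1000 bp of an AtHY5-only event. For events with AtPIF4 nearby, such an event can be a neighbour. No test over samples was possible. Beyond 20000 bp from AtPIF4 the AtHY5-only share was 25.2% (22.1 to 28.6). The 137 AtHY5-only events with an AtHY5 neighbour within 100 bp had a median score of 187 (158 to 212), and the 4552 with none within 1000 bp had 104 (102 to 106).

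Gene lists were then read against the share of 23.1% for all genes. For each list a second figure gives the number of genes that would hold an event if each gene had the share of its length class. Length within a class is not accounted for, and the longest class runs from 3349 to 27265 bp. Of 184 listed genes outside the pericentromeres, 54 held an AtHY5-only event, against 45.3 by length. No test was made of any list. Among genes named by score in these lists, BBX32, BBX18, FKF1, GI, CHLM, MYBL2, ELIP2, SLY1, RGL3 and PP2AA3 held an event near another gene. Such an event lay within 1000 bp beyond an end of that other protein-coding gene, so position alone cannot tell to which gene it belongs.

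Auxin genes stood highest among the larger lists, with 11 of 23 genes holding an event against 5.91 by length, and 9 against 4.17 with equal lowest scores on all chromosomes. PIN7, which encodes an auxin efflux carrier, had a score of 523 on chromosome 1 at 8181269 to 8181468, with the centre 1179 bp inside the gene and 1989 bp from AtPIF4. AUX1, an auxin influx carrier gene, had 290 on chromosome 2 at 15975313 to 15975512. GH3.3, an auxin conjugation gene, had 157, and IAA29, which encodes a repressor of auxin responses, had 155. The remaining 7, named after their values were seen, were YUC9 and TAA1 of auxin synthesis, the receptor gene TIR1, ARF6, PIN3, the kinase gene PID and AXR3, with highest scores from 65.6 to 155. PID held 3 events.

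Receptor genes led the abscisic acid list, in which 5 of 15 genes held an event against 3.74 by length. With equal lowest scores the count was 5 against 2.67. PYL4 held a pair 66 bp apart on chromosome 2, at 16050462 to 16050661 with a score of 384 and at 16050528 to 16050727 with 737. PYR1 held a pair 108 bp apart on chromosome 4, at 9928937 to 9929136 with 480 and at 9929045 to 9929244 with 148. Both genes encode receptors of the PYR/PYL family, and both pairs lay more than 10000 bp from AtPIF4, at least 11946 bp for PYL4 and 13576 bp for PYR1. ABI3, a seed transcription factor gene, held events of 138 and 198, and the phosphatase gene ABI1 held 1 of 97. The last gene, named after its value was seen, was ABI5, a bZIP factor gene, with 96.8.

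B-box genes, which encode zinc finger partners of HY5 and other light regulators, held events in 4 of 13 cases against 2.64 by length. With equal lowest scores the count was 4 against 1.99. BBX32 had 2, with scores of 255 and 163 on chromosome 3 from 7412766 to 7413734, more than 20000 bp from AtPIF4. The first also lay 408 bp beyond an end of AT3G21140. The second, 93 bp inside BBX32, lay 142 bp beyond an end of MNS2. BBX18 had 247, 1146 bp from AtPIF4 and so close to the limit of the choice. BBX31 had 173 and BBX21 had 69.

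In the light signalling list, 7 of 28 genes held an event against 7.45 by length, and 4 against 5.19 with equal lowest scores. All 7 scores lay between 81 and 151. UVR8, the ultraviolet-B receptor gene, had 151, and HFR1, which encodes an atypical bHLH protein that restrains PIF factors, had 142 at 26 bp from a gene end and 1021 bp from AtPIF4. COP1, which encodes the ubiquitin ligase that removes HY5 in darkness, had 110 on chromosome 2 at 13982416 to 13982615, 1094 bp inside the gene. PIF3, the gene of another PIF factor, had 101. PIF4 itself held 1 of score 90, named after its value was seen. HY5 and its homologue HYH held no AtHY5-only event. AtHY5 events outside a gene or with AtPIF4 within 1000 bp are not counted here, so such events at HY5 or HYH are not excluded.

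Clock genes with an event numbered 5 of 20, against 5.36 by length, and 5 against 3.70 with equal lowest scores on all chromosomes. FKF1, a blue-light F-box protein gene of flowering time, had a score of 306 on chromosome 1 at 25509790 to 25509989, 1018 bp inside the gene. GI, which encodes the partner of FKF1, had 201. BOA, a homologue of the evening gene LUX, held 2 events of 63.3 and 150, and the pseudo-response regulator gene PRR5 held 1 of 133.

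Pigment genes held events of moderate score. Among the genes of flavonoid and anthocyanin synthesis, 6 of 21 held 1 or more against 5.04 by length, and 5 of these 6 held 2. With equal lowest scores the count was 6 against 3.69. The ligase gene 4CL3 had scores of 71 and 204.5, PAP1, the MYB activator gene of anthocyanin synthesis, had 62.2 and 156, MYB12, an activator gene of flavonol synthesis, had 138 and 83.6, and the repressor gene MYBL2 had 73.3 and 120. In the chlorophyll and haem list 3 of 14 genes held an event against 3.42, and 2 against 2.44 with equal lowest scores. The 3 genes were the methyltransferase gene CHLM with 123, the chlorophyll synthase gene G4 with 106, and GUN5, which encodes a subunit of magnesium chelatase, with 74. In the light harvesting list, 3 of 15 genes held an event against 3.12, and 2 against 2.39 with equal lowest scores. ELIP1 and ELIP2, which encode early light-induced proteins, had 220 and 145, and RCA, the Rubisco activase gene, had 74.

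The gibberellin and brassinosteroid list had 4 genes of 21 against 5.11, all of them gibberellin genes. With equal lowest scores the count of the list was 4 against 3.62. RGL3, which encodes a DELLA repressor, held 4 events along 2258 bp on chromosome 5, with scores of 59.6, 70, 176 and 137. The F-box gene SLY1 had 222, the receptor gene GID1B had 134, and the DELLA gene RGA1 had 115. None of the listed brassinosteroid genes held an AtHY5-only event, but this split of the list was not planned. These genes are few, and of all genes only 23.1% held such an event. AtHY5 events outside a gene or with AtPIF4 within 1000 bp are not counted here.

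In the short nitrogen list 3 of 5 genes held an event against 1.39, and 4 against 0.948 with equal lowest scores. NIA1, a nitrate reductase gene, had scores of 66.9 and 617, the second on chromosome 1 at 29239142 to 29239341 and 243 bp from a gene end. The nitrate transporter genes NRT1.1 and NRT2:1 had highest scores of 97 and 94. In the housekeeping list 3 of 9 genes held an event against 2.16, and 2 against 1.54 with equal lowest scores. The scores were 171 in the actin gene ACT7, 112 in the phosphatase subunit gene PP2AA3 and 85 in ACT8. Events of scores like those of most listed light genes were thus also present there.

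Gene families were counted too, with families chosen after the data had been seen, so no weight rests on the choice. Members were found by numbered symbols or synonyms in the gene table, such as GH3.3 or WRKY followed by a number, so genes of a family that carry other names are not counted. Of 8 GH3 genes, 6 held an AtHY5-only event against 2.09 by length, with scores of 519 in GH3.9 and 487 in GH3.4 beside GH3.17. Pectin methylesterase genes had 8 of 13 against 3.34, NPF transporter genes 11 of 24 against 6.59, and ABC transporter genes 43 of 113 against 32.2. ABCB4, an auxin transporter gene, led the last family with 1091. The genes of that family had a median length of 4614 bp, against 4257 bp in the longest length class. Cytochrome P450 genes had 52 of 217 against 51.9 and MYB genes 25 of 111 against 24.3, both close to the figure by length. With equal lowest scores on all chromosomes, P450 genes had 41 against 37.4 and MYB genes 24 against 18.4. In that setting GH3 genes had 5 against 1.45, pectin methylesterase genes 5 against 2.35, NPF genes 7 against 4.52 and ABC genes 33 against 21.8.

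Other families of regulators and of growth lay on either side of the figure by length. WRKY factor genes had 20 of 67 against 15.5, NAC factor genes 19 of 68 against 15.5, genes with numbered bZIP names, which leave out ABI5, 8 of 33 against 7.37, and heat shock factor genes 4 of 19 against 4.22. Genes counted as bHLH by name had 2 of 20 against 4.31, and 2 against 3.19 with equal lowest scores. Among genes of cell growth, the auxin-responsive SAUR genes had 13 of 75 against 11.7, expansin genes 7 of 24 against 5.31, and the XTH genes of xyloglucan remodelling 3 of 29 against 6.31. The XTH count was 6 when only AtPIF4 events above their median score were used, and 1 against 4.83 with equal lowest scores. Glycosyltransferase genes of the UGT class had 16 of 58 against 13.0, and 25 with AtPIF4 events above their median score. Glutathione transferase genes had 5 of 44 against 8.67, aquaporin genes 6 of 33 against 7.43 and CRK receptor kinase genes 12 of 37 against 9.80. With equal lowest scores the CRK count fell below its figure by length, to 4 against 6.82, and the expansin count was 4 against 3.97. In that setting WRKY genes had 18 against 11.3, NAC genes 16 against 11.3, bZIP genes 7 against 5.35 and SAUR genes 12 against 8.63. UGT genes had 14 against 9.74, and the aquaporin count rose above its figure, with 6 against 5.50. Heat shock factor genes with 2 against 3.10 and glutathione transferase genes with 4 against 6.67 stayed below.

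Agamous-like MADS-box genes had 12 of 76 against 16.7, with scores from 143 downward, and with equal lowest scores on all chromosomes 1 against 11.7. Genes of families with near-identical copies can share reads, and the authors' handling of such reads is not stated.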

How the data were processed

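DAP-seq event lists of AtHY5 and AtPIF4 were used, each from 1 library. The submitters' processing notes name Trim Galore, Bowtie2 and the build TAIR10, and per the file headers the caller was GEM. Each deposited event has a 200 bp interval, a centre and a score. What the deposited score measures, its threshold and its normalization are not given in the sources used here, so it was used only within a list. Depth is unknown.

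Positions are 1-based and those of the lists. Genes came from RefSeq's TAIR10.1 table, which has no strand, and none of its coordinates are printed. Events were assigned with numpy 2.4.6 and pandas 2.3.3, tested on simulated events with known distances. Shares have Wilson intervals, medians binomial ones and no model was fitted (scipy 1.17.1). The members and gene lists were chosen with earlier results of these data known. Of 199 listed loci, 1 had no matching symbol and 14 lay in pericentromeres. Named genes are those of the 10 highest-scoring events outside rRNA blocks, the 5 genes with the most events, up to 4 per list by score, and 4 events at the distance limit. Planned sequence windows were not run. Alternatives are given in the closing section.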

Additional observations from a re-analysis of the deposited data

How the results depend on the processing

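Across 66 recomputed values of the 8 main results, 41 stayed within the interval of the reported value or within 1.5 times a count. Of the results with a no-change value, the score ratio stayed below 1 and the ratio at 300 to 500 bp above 1 in every setting run. With AtPIF4 at 500 bp the score ratio was 0.656, the share of genes 24.8% and the share with an AtHY5 neighbour 36.0%; at 2000 bp the first 2 were 0.768 and 20.4%. With AtPIF4 events above their median score the median was 110.2, the ratio 0.638, the share of genes 26.4% and the neighbour share 35.3%. With AtHY5 events above their median score there were 2966 events with a median of 172, 50.6% lay within 500 bp of a gene end, the ratio at 300 to 500 bp was 1.44, 11.0% of genes held one, 23.4% had a neighbour and 31 listed genes held one. The share of genes was 22.3% both with events in exactly 1 gene and with the pericentromeres kept. Neighbour shares were 19.7% at 500 bp and 51.9% at 2000 bp. With equal lowest scores on all chromosomes, chosen after seeing the data, the median was 143, 49.8% lay within 500 bp of an end, the ratio was 1.42, 16.5% of genes held an event and 26.8% had a neighbour. Stricter score limits keep fewer, higher events by construction. A shorter AtPIF4 distance or fewer AtPIF4 events can only add AtHY5-only events, so the share of genes cannot fall, and a longer distance cannot raise it. Likewise, a longer neighbour distance cannot lower the neighbour share. The cause of the other shifts was not tested. For single lists and families, 35 of 240 recomputed counts moved by over 1.5 times, and the ranges were 7 to 12 for auxin, 5 to 7 for GH3, 5 to 11 for pectin methylesterases, 1 to 15 for agamous-like genes, 1 to 6 for XTH, 8 to 25 for UDP-glycosyltransferases and 2 to 8 for light signalling. No paired analysis was possible because each group has 1 sample. Windows of 29 and 61 bases were not run without a genome sequence.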

Other observations

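The form of the score changed with the neighbourhood of an event. Among AtHY5-only events inside genes with no AtHY5 neighbour within 500 bp, 4237 of 5467 scores, or 77.5% (Wilson interval 76.4 to 78.6), were whole numbers at the 1 decimal given in the list. With a neighbour within 300 bp, 72 of 794 were whole, or 9.07% (7.26 to 11.3). Events inside genes with AtPIF4 nearby had 74.5% and 9.99%. How the caller divides signal between close events is not stated, so the scores of close pairs such as those of PYL4 and PYR1 were not added up.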
